A study of Mus musculus with 8 samples.

Results

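The genes described here encode the proteins of the mitochondrial ribosome. They were taken as the protein-coding mouse genes whose symbols are Mrpl or Mrps followed by a digit, and 77 of the 23006 rows of the count table met that rule. By symbol 48 belong to the large subunit (Mrpl) and 29 to the small subunit (Mrps). The annotation holds 78 such genes, and the remaining one, Mrpl33, was not analysed here.

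The 8 libraries hold RNA from livers of wild-type (WT) mice and form 4 groups of 2. SLIT2+APAP mice, which the labels call Double, received SLIT2, a secreted ligand of ROBO receptors, at 2 µg per mouse by intraperitoneal injection for 3 days, and acetaminophen (APAP) at 400 mg/kg. APAP mice received phosphate-buffered saline (PBS) and the same dose of acetaminophen, SLIT2 mice received SLIT2 without acetaminophen, and control mice received PBS alone. Livers were collected 24 h after acetaminophen. The APAP libraries carry the numbers 3 and 4 and the libraries of each other group 1 and 2. Strain, age and sex are not in the labels, and neither is a statement that both libraries of a group are different animals. The p-values below therefore rest on a spread between samples that may be technical.

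The mitochondrial ribosome translates the few proteins that mitochondrial DNA encodes, all of them membrane subunits of the respiratory chain and ATP synthase. Its ribosomal RNAs come from mitochondrial DNA, whereas all of its proteins are encoded in the nucleus, made in the cytosol and imported. Many of these proteins descend from bacterial ribosomal proteins and others are found only in mitochondria. The liver, rich in mitochondria, is also the organ in which a reactive acetaminophen metabolite binds to mitochondrial proteins.

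Symbols and subunits do not match in every case. Mrps30 and Mrps18a sit in the large subunit in structures of the mammalian ribosome, and Mrps36 is a subunit of the oxoglutarate dehydrogenase complex. With those structures as the guide the large subunit had 50 measured genes and the small subunit 26. Mrps18a, Mrps18b and Mrps18c are paralogues related to a single bacterial protein.

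Many of the 77 genes start near a neighbour on the other strand. A protein-coding gene on that strand began within 1000 bases for 33 of them (42.9%), against 12.7% of the 17945 protein-coding genes of the table. Pairs whose annotated genes overlap at their starts were counted too. The word shared in the labels below means only such a nearby start. The stretches below lie before the RefSeq transcription starts of 5 genes that were lower in SLIT2+APAP than in APAP livers, a comparison given further on, and no annotated exon covers them. That of Mrpl46 also ends just before the start of Mrps11 and lies inside the span that GENCODE gives Mrpl46, whose outermost transcript begins further upstream. That of Mrpl43 does not lie between both GENCODE starts, because Twnk is annotated to begin inside Mrpl43. The stretches are RefSeq sequences of build GRCm38.p6, written 5′ to 3′ on the strand of the gene. Capitals mark matches on either strand to GGGCGG, a core motif of SP1, or to CCGGAAGT, a motif of ETS factors such as GABPA.
Mrps18a, chr17:46110754-46110985, plus strand: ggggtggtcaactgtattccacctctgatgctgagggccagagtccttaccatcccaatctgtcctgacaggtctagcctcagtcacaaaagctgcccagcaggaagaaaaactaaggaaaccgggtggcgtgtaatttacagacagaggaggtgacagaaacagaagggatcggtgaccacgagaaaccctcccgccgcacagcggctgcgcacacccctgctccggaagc
Mrps12, shared with Sars2, chr7:28741822-28741991, minus strand: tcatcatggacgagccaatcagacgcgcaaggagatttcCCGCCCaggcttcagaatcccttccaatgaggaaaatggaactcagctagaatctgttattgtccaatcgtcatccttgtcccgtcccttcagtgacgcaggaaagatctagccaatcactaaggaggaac
Mrpl37, shared with Cyb5rl, chr4:107066869-107066987, minus strand: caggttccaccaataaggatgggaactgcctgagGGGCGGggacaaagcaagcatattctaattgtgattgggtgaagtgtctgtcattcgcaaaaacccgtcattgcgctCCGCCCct
Mrpl43, shared with Twnk, chr19:45006443-45006557, minus strand: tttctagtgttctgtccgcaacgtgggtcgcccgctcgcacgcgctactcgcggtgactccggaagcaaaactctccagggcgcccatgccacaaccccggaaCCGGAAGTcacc
Mrpl46, shared with Mrps11, chr7:78783090-78783118, minus strand: gcccctcgccggcccgcgttgcctcatgg

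Motifs were counted in RefSeq windows from 250 bases before to 50 bases after each start, on both strands, and 68 of the 77 genes had a window. GCGCATGC, the NRF1 core, was present for 7 genes (10.3%), against 3.0% of all 27025 genes with a window. CCGGAAGT was present for 11 genes (16.2%, against 4.3%) and AAGATGGC, the YY1 motif, for 12 (17.6%, against 3.2%). GGGCGG was present for 34 (50%, against 38.2%). A match is a run of letters and was not tested as a binding site.

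Total counts ranged from 60823534 to 100543754 per library, and all 77 genes passed the filter on low counts, and they are 77 of the 16876 genes tested. The lowest count of any of them was 52, in a SLIT2 library. The 13 protein-coding genes of mitochondrial DNA took 25.1 and 30.3% of the counts in SLIT2+APAP, 14.9 and 13.4% in APAP, 60.2 and 69.0% in SLIT2, and 16 and 17.3% in control. The SLIT2 libraries therefore stand apart, and each result is read with that in view. Summed over 8 hepatocyte markers, SLIT2 libraries held 14100 and 8310 CPM, against 51100 to 101000 CPM in the other 6 libraries, where CPM is the usual depth-scaled count, here relative to the TMM-scaled total of the library. Summed over 8 skeletal muscle markers, the control libraries held 909 and 99.7 CPM and the other libraries at most 1.56. The part of these shifts in the results below was not tested. In whole liver, fewer cells of a type and less RNA per cell cannot be told apart.

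The abundance of the genes varied widely. Averaged over all libraries and divided by exon length, Mrps21 had the highest level at 61.3 CPM per kilobase, followed by Mrpl12 at 45.7 and Mrpl18 at 45.5. Mrps21 is the homologue of a small bacterial subunit protein, and Mrpl12 forms the flexible stalk that recruits translation factors. The lowest levels were those of Mrpl3 (1.04), Mrpl23 (1.20) and Mrps9 (1.57 CPM per kilobase). Exon lengths are unions over all annotated transcripts, so these levels depend on the annotation. Mrpl23 is also uncertain because a processed pseudogene, Mrpl23-ps1, held 33.0 and 32.7 CPM in SLIT2+APAP and 23.0 and 26.5 CPM in control. Mrpl23 itself had 7.28 and 9.11 CPM in SLIT2+APAP and 7.41 and 7.16 CPM in control.

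**Figure D1:**
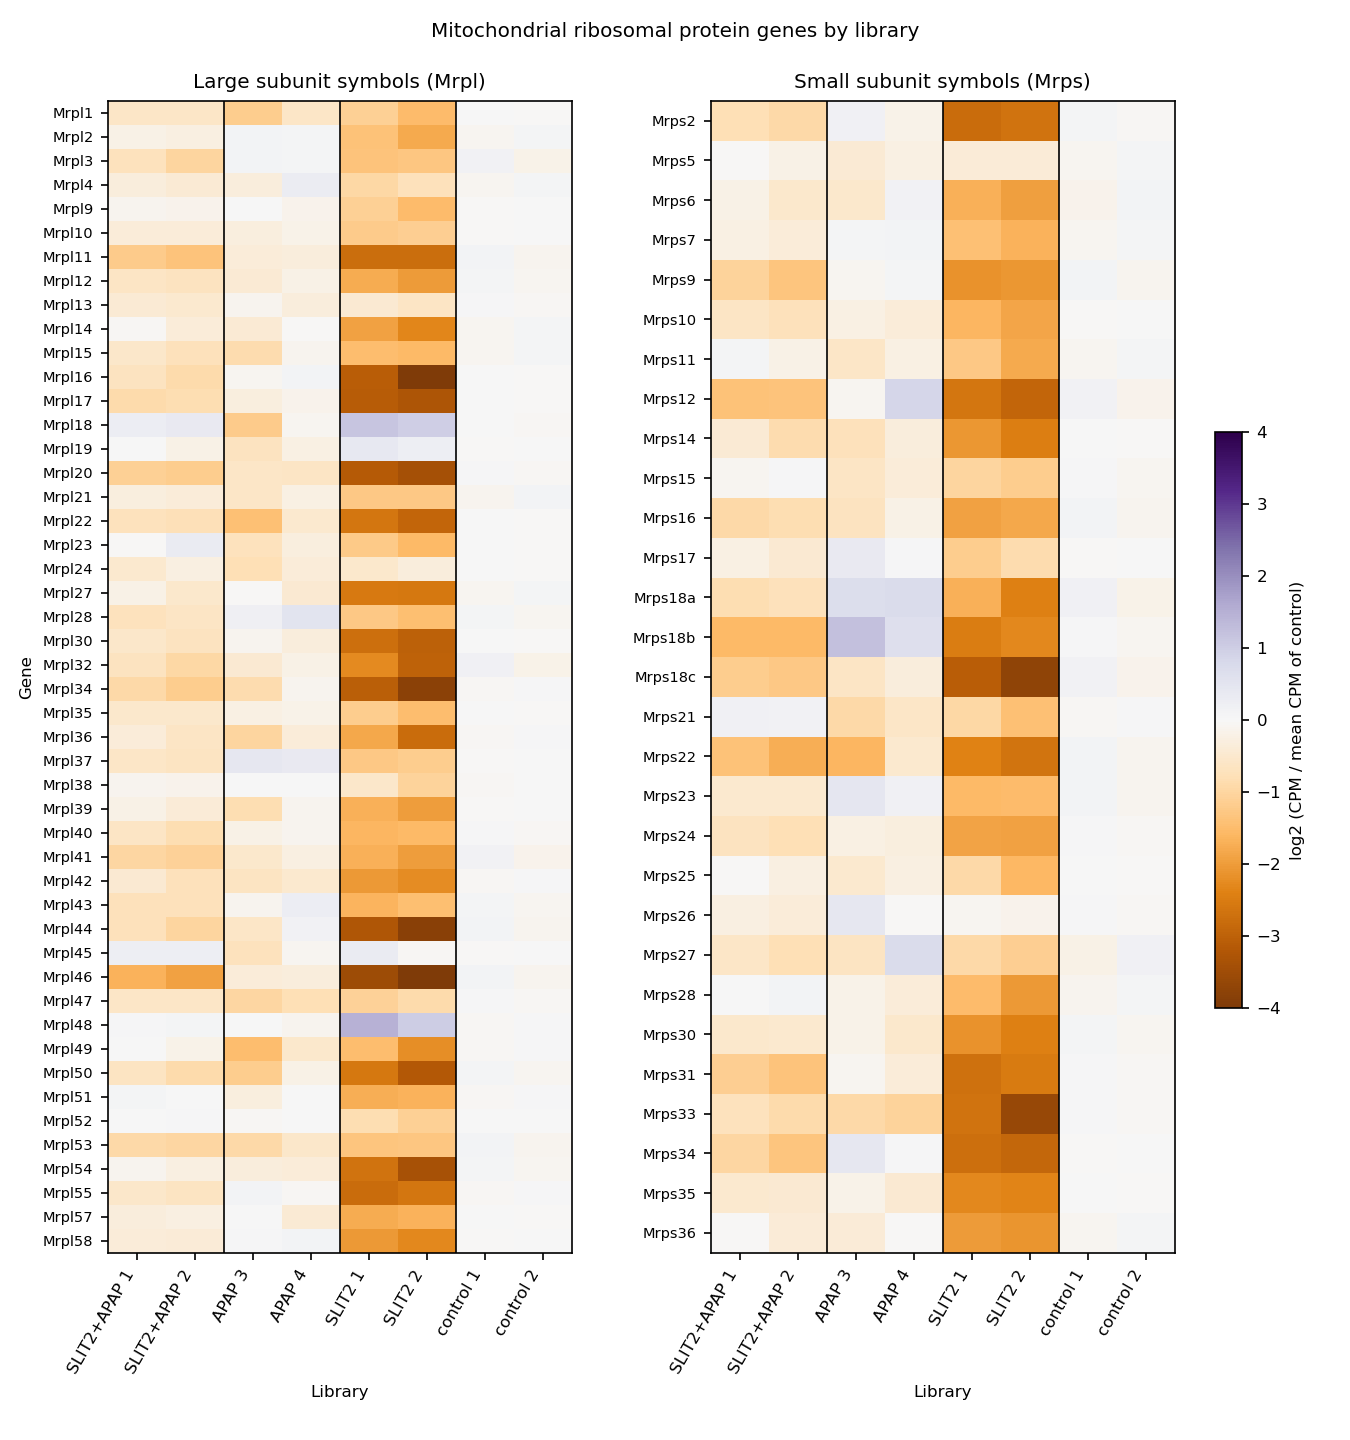
Level of each of the 77 genes (rows) in each library (columns) as log2 of its CPM over the mean CPM of the control libraries, large subunit symbols on the left and small subunit symbols on the right. Brown is lower and purple higher than control, and the SLIT2 columns are the brownest for nearly every gene, with Mrpl48 and Mrpl18 purple there.

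APAP against control concerns acetaminophen on its own. With edgeR's quasi-likelihood test, 0 of the 77 genes were called higher or lower at a Benjamini-Hochberg adjusted p under 0.05, a threshold that 0.332% of all genes passed as higher and 0.456% as lower. The median log2 fold change of the 77 genes was -0.25, beside 0.05 over all genes tested, and 57 of 77 fold changes were negative. The large subunit had a median of -0.27 and the small subunit of -0.25.

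At an unadjusted p under 0.05, 2 genes were higher and 12 lower, beside 14.5% and 10.1% of all genes. The APAP and control values of 46 genes did not overlap with APAP lower, and those of 9 did not overlap with APAP higher, beside 26.1% and 26.9% of all genes. DESeq2 called 5 genes lower (Mrpl47, Mrps33, Mrpl1, Mrpl53 and Mrps21) and Mrps18b higher, and it called 5.11% of all genes lower and 6.46% higher.

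The smallest p among the negative fold changes belonged to Mrpl47, a protein at the exit of the peptide tunnel. It had 10.3 and 11.8 CPM in APAP libraries, against 21.1 and 19.7 CPM in control libraries. Both APAP values were below both control values, but the change did not pass (log2 fold change -0.88 ± 0.20 SE, edgeR adjusted p = 0.06869). Mrpl53, a mitochondria-specific protein of the large subunit, had 18.9 and 24.4 CPM in APAP and 38.6 and 33.0 CPM in control (log2 fold change -0.73 ± 0.21, edgeR adjusted p = 0.1003).

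Members of the Mrps18 family lay at the other end. Mrps18b had 74.1 and 49.3 CPM in APAP, against 33.1 and 30.2 CPM in control (log2 fold change 0.96 ± 0.24, edgeR adjusted p = 0.07795). Mrps18a had 23.3 and 24.1 CPM in APAP, against 16.3 and 13 CPM in control (log2 fold change 0.70 ± 0.27, edgeR adjusted p = 0.1652). For both genes every APAP value exceeded every control value, and neither passed the threshold. The third paralogue, Mrps18c, stood at 25.5 and 31.1 CPM in APAP, below its 42.7 and 35.3 CPM in control, and it was not called either (log2 fold change -0.46).

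The APAP libraries differed from each other more than the libraries of any other group. The median absolute log2 difference over the 77 genes was 0.12 between the SLIT2+APAP libraries, 0.30 between the APAP libraries, 0.24 between the SLIT2 libraries and 0.11 between the control libraries. For Mrps12 the library APAP 3 gave 17.8 CPM while APAP 4 gave 33.9 CPM. Without APAP 4 the median log2 fold change of the 77 genes against control was -0.35, and without APAP 3 it was -0.19. More genes were called without APAP 4 than without APAP 3, in the family and over all genes.

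**Figure D2:**
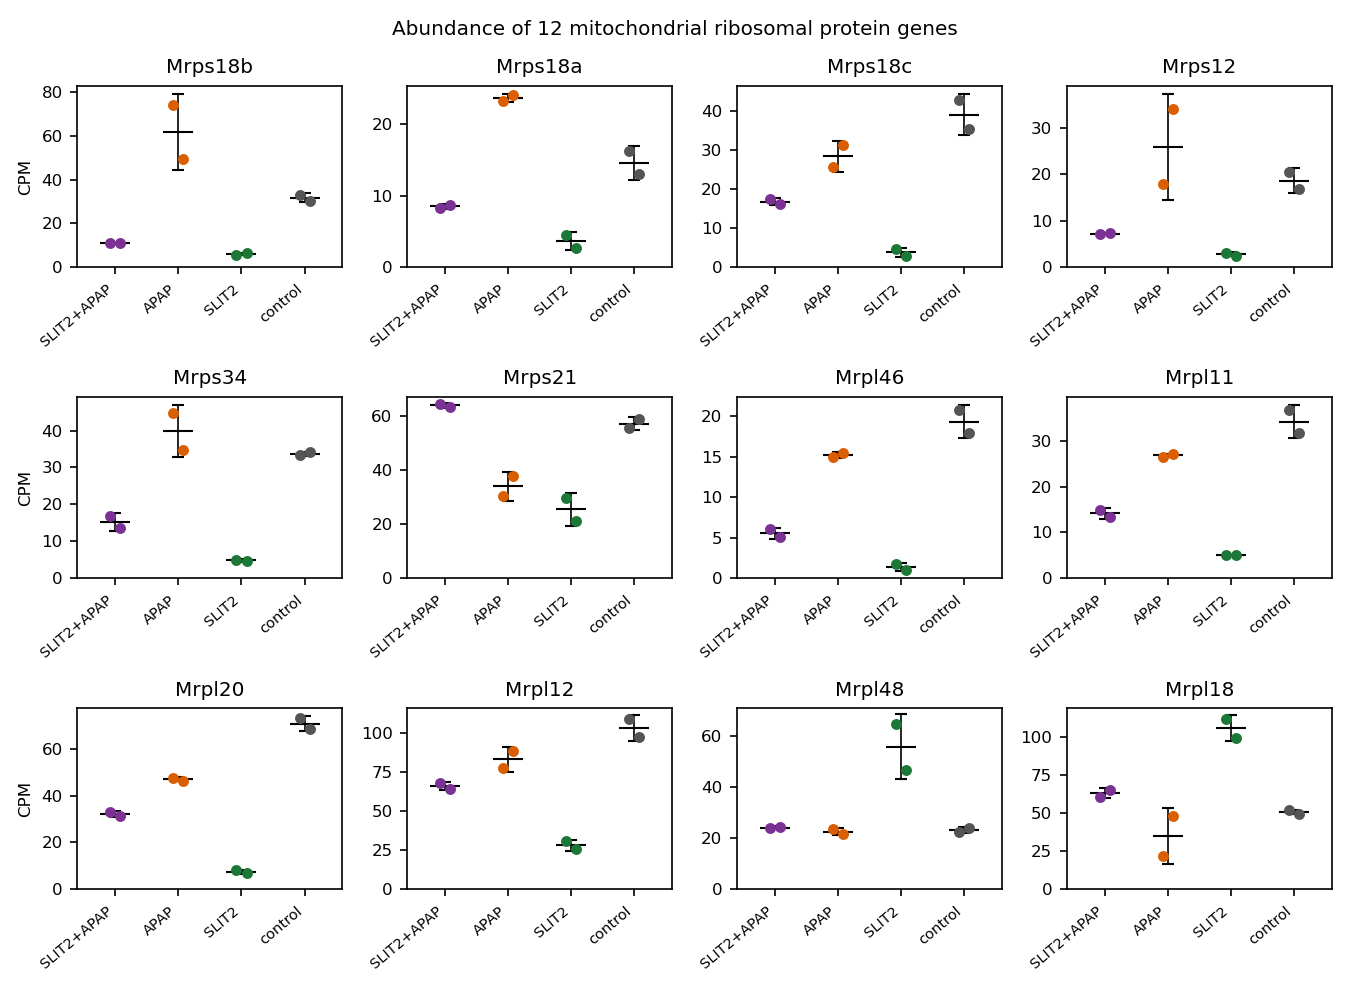
Level in CPM of 12 genes in the 4 groups, with each library as a point and the mean and SD (n = 2) as a line and bars. Mrps18b and Mrps18a are highest in APAP, Mrps21 is lowest in SLIT2 and APAP, and Mrpl48 and Mrpl18 are highest in SLIT2.

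Set against APAP, the SLIT2+APAP livers bear on how SLIT2 acted where acetaminophen was also given. Here 14 of the 77 genes fell and 1 rose, beside 7.63% of all genes called lower and 6.28% called higher. The median log2 fold change was -0.25, beside -0.06 over all genes. Libraries were also scaled by their counts outside the 13 protein-coding genes of mitochondrial DNA, below called counts outside mitochondrial DNA. The median was then 0.19, beside 0.37 over all genes. The sign of the family's median thus depends on scaling, while its distance from the median of all genes was -0.19 and -0.18. With that scaling 5 genes fell and 6 rose, beside 3.51% of all genes called lower and 14.1% called higher. With the TMM scaling, 16 of 90 nuclear respiratory chain genes and 12 of 86 cytosolic ribosomal protein genes were also lower, with 0 and 1 higher. All 8 hepatocyte markers had negative fold changes (median -0.77), none of them called, and 2 of 5 cholangiocyte markers, Epcam and Sox9, fell. Of 7 neutrophil markers tested 2 rose and 1 fell, and of 8 macrophage markers 1 fell. No marker of the other lists was called. The part of these markers in the result was not tested.

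Mrps18b, classed by structure as a mitochondria-specific protein of the small subunit though related to a bacterial protein, had the largest fall of the family. It stood at 10.9 and 10.9 CPM in SLIT2+APAP, against 74.1 and 49.3 CPM in APAP, a 5.64-fold lower level (log2 fold change -2.50 ± 0.25, edgeR adjusted p = 0.004763). The SLIT2+APAP values were also below both control values. Mrps18b (ENSMUSG00000024436) lies on chromosome 17 from 35910379 to 35916389 of GRCm38, and its start is 45 bases from that of Ppp1r10 on the other strand. Ppp1r10, which encodes a subunit that targets a phosphatase to the nucleus, had 16 and 28.3 CPM in SLIT2+APAP and 30.6 and 31.7 CPM in APAP and was not called (edgeR adjusted p = 0.27).

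Other proteins classed as mitochondria-specific fell as well. Mrps34 had 16.9 and 13.5 CPM in SLIT2+APAP, against 44.9 and 34.8 CPM in APAP libraries (log2 fold change -1.39 ± 0.22, edgeR adjusted p = 0.01108). Mrpl46 had 6.03 and 5.08 CPM in SLIT2+APAP, against 14.9 and 15.5 CPM in APAP (-1.45 ± 0.27, edgeR adjusted p = 0.01547). Mrpl37 had 17.3 and 16.5 CPM in SLIT2+APAP, against 34.5 and 33.0 CPM in APAP (-1.0 ± 0.18, edgeR adjusted p = 0.01514). For all 3 the groups did not overlap. Mrps34 is needed for a stable small subunit, and Mrpl46 and Mrpl37 belong to the large subunit.

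At the decoding site, Mrps12 had 7.07 and 7.31 CPM in SLIT2+APAP and 17.8 and 33.9 CPM in APAP libraries (log2 fold change -1.85 ± 0.32, edgeR adjusted p = 0.01392). Mrps18a, which structures place in the large subunit, had 8.30 and 8.75 CPM in SLIT2+APAP and 23.3 and 24.1 CPM in APAP (-1.48 ± 0.27, edgeR adjusted p = 0.01583). In both genes the SLIT2+APAP values lay close together and far below the lower APAP value. Mrps18c had 17.3 and 16.1 CPM in SLIT2+APAP and 25.5 and 31.1 CPM in APAP and was not called (log2 fold change -0.76).

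The remaining falls were Mrps9 (log2 fold change -1.17), Mrps31 (-1.02), Mrpl28 (-1.01), Mrpl3 (-0.96), Mrpl11 (-0.92), Mrps2 (-0.87), Mrpl43 (-0.82) and Mrps23 (-0.80). The single rise was that of Mrps21, the most abundant transcript of the family per length. Mrps21 had 64.7 and 63.5 CPM in SLIT2+APAP, against 30.3 and 38.0 CPM in APAP libraries (log2 fold change 0.91 ± 0.23, edgeR adjusted p = 0.03873). That is above both APAP values and near its 55.6 and 59.0 CPM in control.

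**Figure D3:**
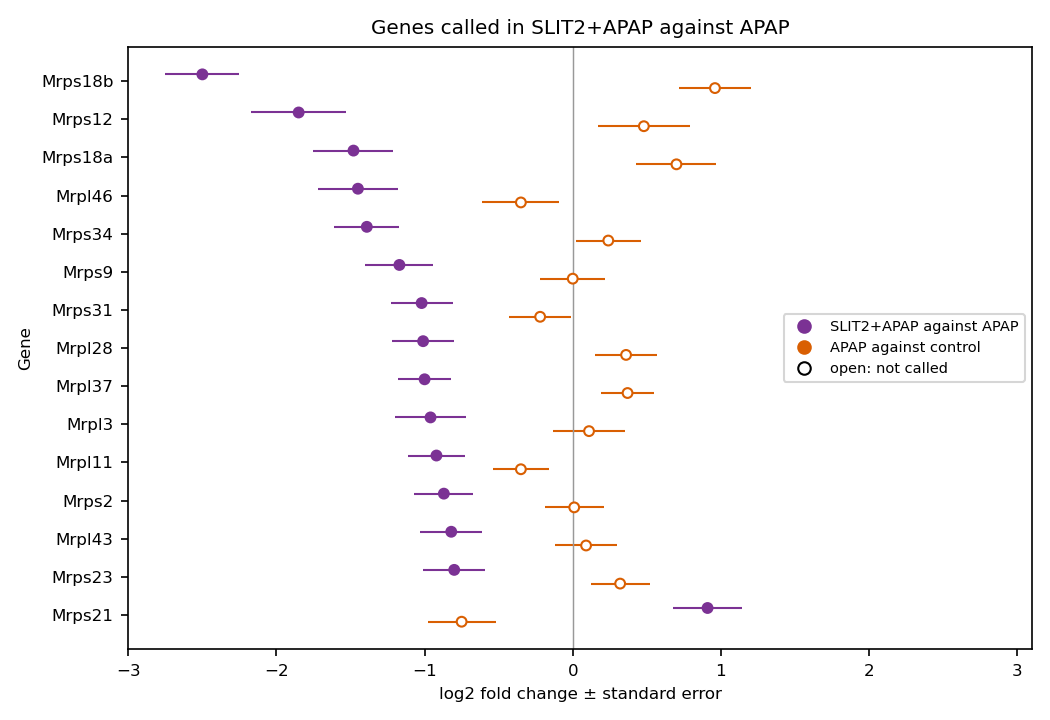
Log2 fold change with its standard error of the 15 genes called in SLIT2+APAP against APAP (purple), beside the same genes in APAP against control (orange), where open points were not called. The points run from -2.50 for Mrps18b to 0.91 for Mrps21, and the 2 comparisons share the APAP libraries.

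A list of 15 proteins was drawn up for functional sites: the stalk, the peptidyl transferase centre, the exit tunnel, the membrane contact and the decoding site. Of these 15, 4 fell (Mrpl3, Mrpl11, Mrps2 and Mrps12) and 11 were not called. Not every listed protein was tied to a site, and Mrps2 was not. The stalk proteins Mrpl10 and Mrpl12 were not called, with log2 fold changes of -0.13 and -0.33. Neither were Mrpl22 (0.14), Mrpl23 (0.66) and Mrpl24 (0.18) of the exit tunnel or Mrpl45 (0.58), which anchors the ribosome to the inner membrane. Mrpl58, which releases peptides from stalled ribosomes, had -0.46.

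By subunit, 6 of 48 large subunit genes fell, and 8 of 29 small subunit genes fell and 1 rose. These sets are by symbol, and their medians were -0.17 and -0.45. With subunits assigned by structure, 7 of 50 large subunit genes fell (median -0.19). Of 26 small subunit genes 7 fell and 1 rose (median -0.46). Among the 10 small subunit proteins classed by structure as mitochondria-specific, Mrps18b among them, 4 fell and the median was -0.71. It was -0.37 for the other 16 small subunit proteins, classed as having bacterial relatives. In the large subunit the medians were -0.14 over 21 mitochondria-specific proteins and -0.25 over 29 with bacterial relatives. Taken library by library against the control mean, with subunits by symbol, the large subunit median minus the small subunit median was 0.04 and 0.16 in SLIT2+APAP and -0.14 and 0.05 in APAP. These ranges overlap, so the gap between the subunits was within the spread between libraries.

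Calls in this comparison depended on the libraries in the fit, including libraries of groups not compared here. Most falls lost their call without 1 SLIT2+APAP or 1 control library, where fewer of all genes were called too. The falls kept their calls without 1 APAP library. With 1 library left out, the median log2 fold change of the 77 genes ran from -0.33 (without SLIT2+APAP 1) to -0.18 (without APAP 4). Without both SLIT2 libraries 10 of the falls and the rise of Mrps21 remained, beside 844 of 15932 genes called lower and 823 called higher. A fit of only these 4 libraries called 0 of the 77 genes and 1 gene of all.

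Neighbours with nearby starts did not always move together. Sars2, the mitochondrial seryl-tRNA synthetase next to Mrps12, had 2.93 and 3.48 CPM in SLIT2+APAP and 5.64 and 7.70 CPM in APAP and fell with it (log2 fold change -1.06 ± 0.26, edgeR adjusted p = 0.03609). Mrps11, next to Mrpl46, had 15.5 and 12.9 CPM in SLIT2+APAP and 9.90 and 12.5 CPM in APAP (0.34 ± 0.26, edgeR adjusted p = 0.3832). Twnk, the mitochondrial DNA helicase next to Mrpl43, had 9.81 and 10.2 CPM in SLIT2+APAP and 6.34 and 13.3 CPM in APAP (0.02 ± 0.33, edgeR adjusted p = 0.975). Mrpl46 thus fell while its partner was not called, as did Mrpl43. Both pairs overlap at their starts on opposite strands, and the strand setting of the counting is not given in the sources used here, so their reads may be shared.

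The other genes of mitochondrial translation were mixed. Among 15 translation factors, Tufm and Gfm1 fell and 13 were not called. Tufm, the elongation factor that brings tRNAs to the ribosome, had 18.2 and 14.1 CPM in SLIT2+APAP and 58.5 and 89.3 CPM in APAP libraries (log2 fold change -2.20 ± 0.28, edgeR adjusted p = 0.006216). Gfm1, the translocase, had 11.9 and 11.1 CPM in SLIT2+APAP and 23.3 and 38.4 CPM in APAP.

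Of 25 assembly factors and RNA-modifying enzymes, Afg3l2, Ddx28 and Mpv17l2 fell and 22 were not called. Afg3l2, a protease that also matures Mrpl32, had 16.9 and 14.1 CPM in SLIT2+APAP and 51.8 and 45.0 CPM in APAP libraries (log2 fold change -1.64 ± 0.20, edgeR adjusted p = 0.005993). Of 20 aminoacyl-tRNA synthetases and amidotransferase subunits, Sars2 and Mars2 fell and Lars2 rose. Lars2 had 1090 and 1560 CPM in SLIT2+APAP, 274 and 331 in APAP, 2600 and 7300 in SLIT2, and 1080 and 925 in control. No other gene of that list exceeded 41.2 CPM in a library. The origin of the Lars2 reads was not tested. Among 5 ribosomal proteins with other symbols, Chchd1 fell and Gadd45gip1 rose. Of 16 regulators of mitochondrial transcription and biogenesis, the coactivator Pprc1 fell, at 4.48 and 6.06 CPM in SLIT2+APAP and 23.7 and 10.6 CPM in APAP.

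Against control, SLIT2+APAP livers had 7 of the 77 genes lower and 0 higher, beside 1.45% and 0.693% of all genes. At an unadjusted p under 0.05, 41 were lower and 0 higher, beside 10.8% and 9.65% of all genes. DESeq2 called 22 lower and 0 higher, beside 6.04% and 3.67% of all genes. The median log2 fold change was -0.57, beside 0.04 over all genes, and 69 of 77 fold changes were negative. With scaling by counts outside mitochondrial DNA the medians were -0.06 and 0.55 and 2 genes (Mrpl46 and Mrps18b) were lower, beside 1.27% of all genes.

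The genes that fell were Mrpl46, Mrpl11, Mrps18b, Mrpl20, Mrps31, Mrps34 and Mrps9, and 6 of them, all but Mrpl20, also fell in SLIT2+APAP against APAP. The 2 comparisons share the SLIT2+APAP libraries. Mrpl46 had 6.03 and 5.08 CPM in SLIT2+APAP and 20.8 and 17.9 CPM in control (log2 fold change -1.80 ± 0.27, edgeR adjusted p = 0.03073). Mrpl11, at the base of the stalk, had 15 and 13.3 CPM in SLIT2+APAP and 36.9 and 31.7 CPM in control (-1.27 ± 0.19, edgeR adjusted p = 0.03089). Mrpl20, a homologue of a bacterial assembly protein, had 33.0 and 31.4 CPM in SLIT2+APAP and 73.3 and 68.6 CPM in control (-1.14 ± 0.19, edgeR adjusted p = 0.03502). In each of these the higher SLIT2+APAP value was below the lower control value.

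Over the family, the SLIT2+APAP and control values of 61 genes did not overlap with SLIT2+APAP lower and those of 4 did not overlap with SLIT2+APAP higher, beside 32.3% and 35.2% of all genes. The large subunit had 3 falls and a median of -0.54, and the small subunit had 4 and a median of -0.63. The count of falls was 0 without either control library, either SLIT2 library or either SLIT2+APAP library, 33 without APAP 3 and 32 without APAP 4, where 7.61% and 7.16% of all genes were called lower. A fit of only the 4 libraries compared called 46 lower, beside 14.7% of all genes. A fit without both SLIT2 libraries called 0 lower, beside 2 of 15932 genes.

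SLIT2 alone against control gave the most calls. Of the 77 genes 69 fell and 2 rose, beside 27.6% and 27.3% of all genes. The median log2 fold change was -1.80, beside 0.00 over all genes. These values are relative to libraries in which mitochondrial DNA took most counts, and hepatocyte markers were low. Of 7 neutrophil markers tested 3 rose (Cxcr2, Csf3r and Mpo) and 4 were not called. Cxcr2 alone had 26.8 and 26.3 CPM in SLIT2 and 1.62 and 1.66 CPM in control, whereas S100a8 had 1.75 and 0.507 CPM in SLIT2 and 0.572 and 0.978 CPM in control. Falls were called for 6 of 8 hepatocyte, 8 of 8 skeletal muscle, 4 of 8 macrophage and 2 of 6 stellate markers. Of 6 endothelial markers 2 rose and 2 fell, of 5 cholangiocyte markers 1 and 2, and of 5 lymphocyte markers 2 rose. As a share of the counts outside mitochondrial DNA, the 77 genes summed to 0.274 and 0.260% in SLIT2 and 0.264 and 0.283% in control. Scaled by those counts, 31 fell and 9 rose, beside 8.73% of all genes called lower and 56.0% called higher. The median was then -0.45, beside 1.35 over all genes.

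The fall with the largest size was that of Mrpl46, at 1.70 and 1.05 CPM in SLIT2 and 20.8 and 17.9 CPM in control (log2 fold change -3.81 ± 0.30, edgeR adjusted p = 0.0001028). Mrpl20 had the smallest p, at 8.07 and 6.75 CPM in SLIT2 and 73.3 and 68.6 CPM in control (-3.26 ± 0.21, edgeR adjusted p = 9.873e-05). Mrpl11 had 5.01 and 5.0 CPM in SLIT2 and 36.9 and 31.7 CPM in control (-2.78 ± 0.21, edgeR adjusted p = 0.0001006). Each of these had both SLIT2 values far below both control values. Mrpl17 (log2 fold change -3.19), Mrpl30 (-2.87) and Mrpl55 (-2.70) completed the 6 falls with the smallest p, all of them large subunit proteins. Falls in the small subunit included Mrps18c (-3.36), Mrps33 (-3.06), Mrps34 (-2.81), Mrps12 (-2.75) and Mrps18b (-2.39).

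The 2 rises were Mrpl48 and Mrpl18. Mrpl48, a mitochondria-specific protein of the large subunit, had 64.9 and 46.8 CPM in SLIT2 and 22.4 and 24.0 CPM in control (log2 fold change 1.27 ± 0.22, edgeR adjusted p = 0.001812). Mrpl18, whose bacterial relative binds a ribosomal RNA of the large subunit, had 112 and 99.6 CPM in SLIT2 and 51.8 and 49.6 CPM in control (1.06 ± 0.33, edgeR adjusted p = 0.02743). Both genes overlap a protein-coding gene on the opposite strand, so their counts are uncertain. Rab6a, which overlaps Mrpl48, had 49.2 and 40.6 CPM in SLIT2 and 63.6 and 54.1 CPM in control, and Tcp1, which overlaps Mrpl18, had 63.7 and 52.8 CPM in SLIT2 and 94.1 and 105 CPM in control. Neither neighbour was higher in SLIT2. Mrpl48 remained called in every fit that left out 1 library, and Mrpl18 lost its call in 6 of those 8 fits and kept it without either APAP library.

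The 6 genes that were not called were Mrpl19, Mrpl24, Mrpl45, Mrps5, Mrps26 and Mrps27. Mrpl45 had 29.2 and 22.7 CPM in SLIT2 and 23.2 and 23.8 CPM in control (log2 fold change 0.14). Mrps26 had 18.7 and 17.8 CPM in SLIT2 and 20.4 and 18.9 CPM in control (-0.10). Of the 15 proteins on the list for functional sites 12 fell, and Mrpl45, Mrpl24 and Mrps5 were the other members.

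By subunit, 43 of 48 large subunit genes fell and 2 rose (median -1.64), and 26 of 29 small subunit genes fell (median -1.91). Taken by library, the large minus small difference was 0.26 and 0.36 in SLIT2 and -0.03 and 0.03 in control. The SLIT2 values lay above the control values, and with subunits assigned by structure the difference between the medians was 0.13 in place of 0.27. Mitochondria-specific proteins of the small subunit had a median of -2.35 and those with bacterial relatives -1.79. In the large subunit the medians were -1.80 and -1.52.

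**Figure D4:**
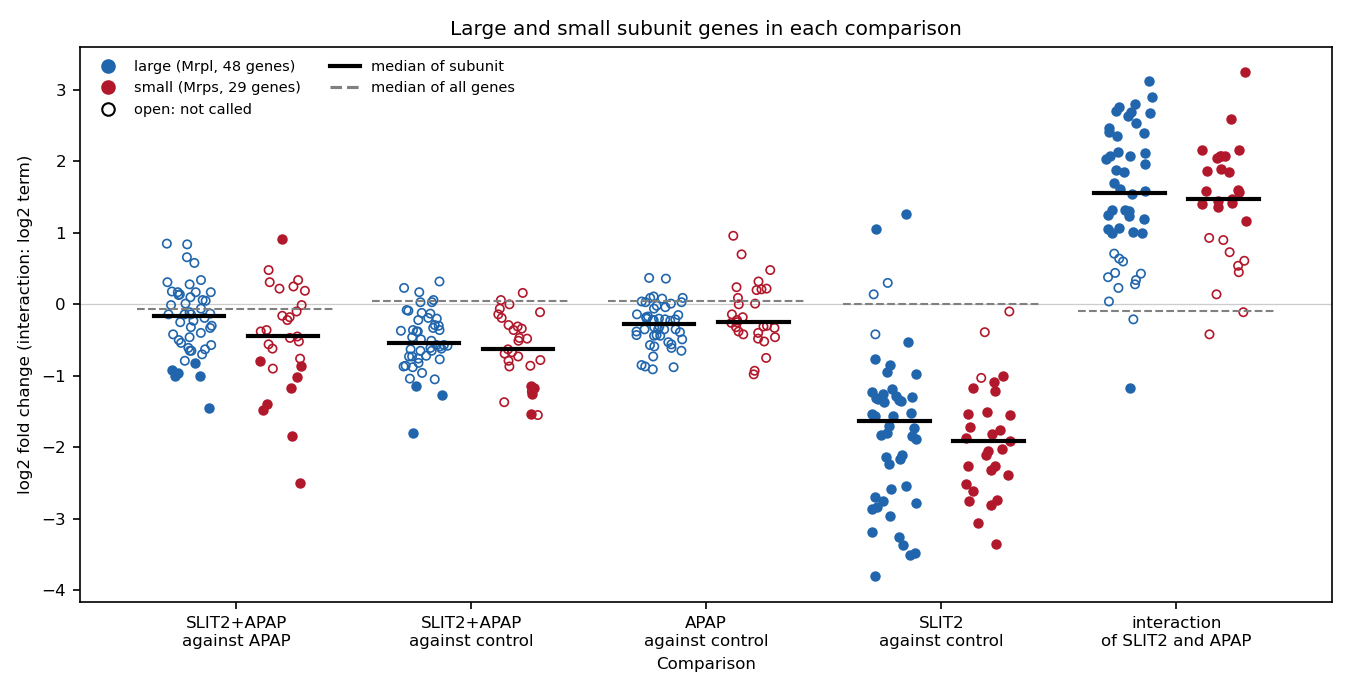
Log2 fold change of every gene in each comparison, large subunit in blue and small subunit in red, with filled points called at an adjusted p under 0.05, black bars at the subunit medians and a dashed grey line at the median of all genes. The widest gap from the grey line is in SLIT2 against control, with medians of -1.64 and -1.91.

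In SLIT2 against control, 78 of 86 cytosolic ribosomal protein genes fell (median log2 fold change -2.24), and of 90 nuclear respiratory chain and ATP synthase genes 82 fell and 1 rose (median -2.81). The 13 protein-coding genes of mitochondrial DNA all rose (median 1.83). Among the translation factors 7 of 15 fell and 1 rose, with Tufm (-3.49), Mrrf (-3.13), which recycles ribosomes, and Gfm1 (-2.95) as the largest falls. Of the assembly factors 12 of 25 fell and 3 rose. Tfam (-2.02) and Gabpa (-1.74) fell among the regulators, and Ppargc1b (4.14) rose.

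In SLIT2+APAP against control the families parted. The 77 genes had a median of -0.57 and the nuclear respiratory chain -0.55, whereas cytosolic ribosomal protein genes had -0.06. The 13 mitochondrial DNA genes had a median of 0.48 with 0 called. A difference between these families was not tested.

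**Figure D5:**
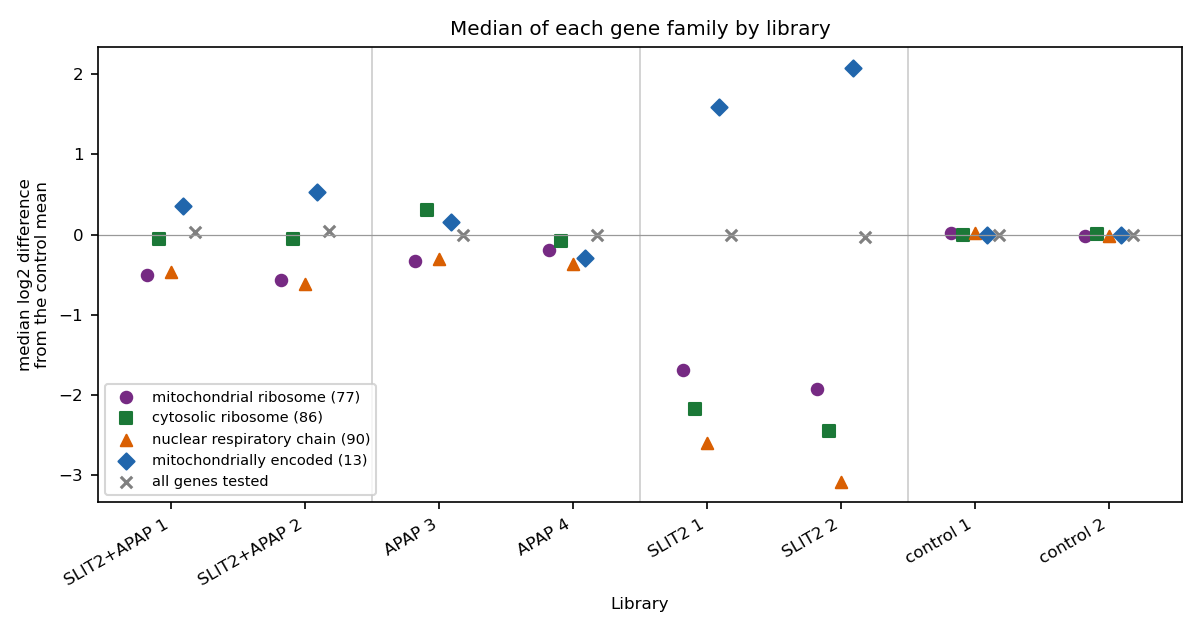
Median log2 difference from the control mean in each library for the mitochondrial ribosome, the cytosolic ribosome, the nuclear respiratory chain, the genes of mitochondrial DNA and all genes tested. Medians of the mitochondrial ribosome were -0.50 and -0.57 in SLIT2+APAP, -0.33 and -0.19 in APAP, and -1.69 and -1.93 in SLIT2.

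The interaction asks whether the effect of SLIT2 differed with and without acetaminophen, as the log2 change in SLIT2+APAP against APAP minus that in SLIT2 against control. It was positive and called for 56 of the 77 genes and negative and called for 1, beside 15.5% and 13.4% of all genes. The median term was 1.55, beside -0.09 over all genes. Positive terms were also called for 80 of 90 nuclear respiratory chain genes (median 2.44) and 65 of 86 cytosolic ribosomal protein genes (median 2.0). These terms are thus not particular to the mitochondrial ribosome. Among the 77 genes, Mrps33, a small subunit protein found only in mitochondria, had the largest term at 3.25 ± 0.43 (edgeR adjusted p = 0.004094). It stood at 30.2 and 27.0 CPM in SLIT2+APAP, 26.0 and 24.2 CPM in APAP, 7.83 and 4.06 CPM in SLIT2, and 51.1 and 48 CPM in control. It fell in SLIT2 against control and was not called in SLIT2+APAP against APAP.

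Mrpl20 had the smallest p, with a term of 2.71 ± 0.27 (edgeR adjusted p = 0.003128). Mrpl54 (3.13 ± 0.36), Mrpl17 (2.54 ± 0.28), Mrpl30 (2.47 ± 0.28) and Mrps35 (2.16 ± 0.28) followed. Mrpl48 was the exception, with a term of -1.17 ± 0.30 (edgeR adjusted p = 0.02667). It had 23.8 and 24.5 CPM in SLIT2+APAP, 23.4 and 21.6 CPM in APAP, 64.9 and 46.8 CPM in SLIT2, and 22.4 and 24.0 CPM in control, so it was high in the SLIT2 libraries alone.

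Mrps18b had a term of -0.11 ± 0.33 (edgeR adjusted p = 0.8301), with falls of similar size in both settings. In SLIT2+APAP against APAP its log2 fold change was -2.50, and in SLIT2 against control it was -2.39. Mrps18a (0.54), Mrpl37 (0.23) and Mrps12 (0.90) also had terms that were not called. The standard errors of these terms were 0.33 for Mrps18b, 0.38 for Mrps18a, 0.25 for Mrpl37 and 0.45 for Mrps12, and a missed threshold does not show that the effect was the same in both settings. Large and small subunits had median terms of 1.57 and 1.47. With scaling by counts outside mitochondrial DNA 26 terms were called positive and 3 negative, beside 5.85% and 32.2% of all genes, and the median of all genes was -1.01. The count of positive terms was 34 without control 1, 36 without control 2 and 28 without SLIT2+APAP 1, where 6.14%, 6.81% and 4.43% of all genes were called positive.

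Across the 77 genes, the log2 fold change in SLIT2 against control had a Pearson r of 0.27 with log2 exon length (Spearman rho = 0.25) and of 0.01 with GC content (rho = 0.06). In SLIT2+APAP against APAP the Pearson values were -0.02 and -0.11. The largest Pearson values over these properties were -0.31 for the interaction term with log2 exon length (rho = -0.27) and 0.29 for APAP against control with GC content (rho = 0.26). The genes share their libraries and are not independent, so these are descriptions.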

How the data were processed

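Liver RNA of mice in 4 groups of 2 libraries was sequenced with a directional library kit per the labels' protocols. The authors deposited whole-number read counts per Ensembl gene, not normalized. Cuffdiff 2.2.1, Cufflinks, STAR 2.5.4 and build mm10 appear in the submitters' processing notes, without their roles. How reads were counted, with which strand setting and annotation, is not given in the sources used here. Identifiers were matched to GENCODE mouse symbols of GRCm38 (22341 of 23006 rows).

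Counts were filtered with filterByExpr, scaled by TMM and fitted over all 8 libraries with edgeR 4.0.16 (quasi-likelihood, robust, R 4.3.3) with 1 coefficient per group, 4 residual degrees of freedom and Benjamini-Hochberg adjustment over 16876 genes at 0.05. The standard error is the log2 fold change over the square root of F. The fit was run on simulated counts with equal group means apart from a small set of changed genes, as many raised as lowered. In SLIT2 against control far more genes were called, so that run does not test the scaling there. Alternatives were DESeq2 1.42.0, other scalings, filters, sets of libraries, a GC correction and leaving out each library.

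The genes, lists and tests were chosen with earlier results of these data known. Named genes are the called ones with the 6 smallest p in each direction (without calls, the 2 smallest), those with the 3 highest and 3 lowest levels per length, those on the list for functional sites, the Mrps18 family, Mrps30 and Mrps36, and the called genes of the pathway lists. Other genes named, such as neighbours with nearby starts and further examples of falls, were chosen after their values were seen.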

Additional observations from a re-analysis of the deposited data

Results flagged for a closer look

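The effect of SLIT2 differed between mice with and without acetaminophen by the interaction term of the edgeR fit, which was called positive for 56 of the 77 genes and negative for 1, beside 15.5% and 13.4% of all genes. It was also called positive for 80 of 90 nuclear respiratory chain genes and 65 of 86 cytosolic ribosomal protein genes. With scaling by counts outside mitochondrial DNA the counts for the 77 genes were 26 and 3, beside 5.85% and 32.2% of all genes. Without SLIT2+APAP 1 their median term was 1.5, beside -0.13 over all genes. Fewer terms were called in that fit, in the family and over all genes. The terms with the smallest p were 2.71 for Mrpl20, 2.54 for Mrpl17, 2.47 for Mrpl30, 3.13 for Mrpl54, 2.16 for Mrps35 and 3.25 for Mrps33, all on the log2 scale. The negative term was -1.17 for Mrpl48. All of these terms rest on the SLIT2 libraries, in which 60.2 and 69.0% of counts came from the 13 protein-coding genes of mitochondrial DNA. The part of that share in these terms was not tested.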

How the results depend on the processing

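The median of the 77 genes minus that of all genes kept its sign under every alternative run in each comparison. Without subtracting all genes, the median in SLIT2+APAP against APAP was -0.25 with TMM and 0.19 with scaling outside mitochondrial DNA. The called genes of the family with the smallest p in each direction also kept their signs. Signs of the other called genes were not followed one by one. In SLIT2 against control, 4 of the 77 fold changes were positive with TMM and 26 with scaling outside mitochondrial DNA. Some called falls therefore changed sign with that scaling. The subunit difference was positive in 2 of 22 fits of APAP against control and negative in 3 of 20 of the interaction, and it stayed positive in the other 3 comparisons. Values below are counts of the 77 genes called, that relative median, or the large minus small subunit median, on the log2 scale. The causes of the shifts were not tested.

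In APAP against control, DESeq2 called 1 gene higher and 5 lower in place of 0 and 0. It called 6.46% of all genes higher and 5.11% lower, in place of 0.332% and 0.456%. The GC correction gave a subunit difference of -0.22 in place of -0.02. In SLIT2+APAP against APAP, with 1 higher and 14 lower, library totals gave 0 and 7 and the compared libraries alone 0 and 0. Scaling outside mitochondrial DNA, chosen after seeing the data, gave 6 and 5. The GC correction gave 2 higher and a subunit difference of 0.42 in place of 0.29. Over all genes the main fit called 1060 higher and 1288 lower, library totals 1133 and 728, and the compared libraries alone 1 and 0. Scaling outside mitochondrial DNA called 2383 and 593 of all genes, and the GC correction 835 and 1043. In SLIT2+APAP against control, with 7 lower, library totals gave 2, DESeq2 22 and the compared libraries alone 46. A minimum of 10 CPM in 2 libraries gave 13, with a relative median of -0.49 in place of -0.61. All libraries but SLIT2 gave 0, and scaling outside mitochondrial DNA 2. Over all genes the main fit called 244 lower, library totals 123, DESeq2 905 and the compared libraries alone 2273. The 10 CPM minimum called 298 of 7393 genes lower, all libraries but SLIT2 called 2, and scaling outside mitochondrial DNA 215.

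In SLIT2 against control, with 2 higher and 69 lower, the 10 CPM minimum gave 4 higher and a relative median of -1.24 in place of -1.79. Scaling outside mitochondrial DNA gave 9 higher and 31 lower. Over all genes the main fit called 4601 higher and 4665 lower, and scaling outside mitochondrial DNA 9454 and 1474. The 10 CPM minimum called 2244 of 7393 genes higher and 2401 lower. Protein-coding genes alone gave a relative median of -1.67. The subunit difference of 0.27 was 0.13 with subunits by structure and 0.35 with the GC correction. For the interaction, with 56 positive and 1 negative, library totals gave 0 negative, the 10 CPM minimum 2 negative, and scaling outside mitochondrial DNA 26 and 3. Over all genes the main fit called 2614 positive and 2253 negative, and scaling outside mitochondrial DNA 987 and 5427. Library totals called 1805 of all genes negative, and the 10 CPM minimum 1761 of 7393. The relative median of the interaction, 1.64, was 1.80 without a filter, 1.11 with the 10 CPM minimum and 1.87 with DESeq2. Its subunit difference of 0.10 was -0.07 with the GC correction.

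Leaving out each library in turn gave 0 to 1 higher and 0 to 17 lower in APAP against control, relative medians from -0.35 to -0.19 and subunit differences from -0.14 to 0.05. Against APAP, SLIT2+APAP had 0 to 8 higher, 0 to 23 lower, -0.34 to -0.13 and 0.12 to 0.28. Against control, SLIT2+APAP had 0 to 33 lower, -0.61 to -0.50 and 0.04 to 0.17. In SLIT2 against control it gave 1 to 2 higher, 66 to 72 lower, -1.90 to -1.71 and 0.20 to 0.36. For the interaction it gave 28 to 64 positive, 0 to 1 negative, 1.48 to 1.78 and -0.05 to 0.14. Where 1 library of a group was left, its spread was taken to be that of the remaining groups.

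With a replicate block on the shared numbers, fitted without the APAP libraries, 34 genes were lower in SLIT2+APAP against control, beside 1385 of 16419 genes. In the same libraries without the block 34 were lower, beside 1396 genes. In SLIT2 against control the block gave 2 higher and 70 lower, beside 5510 and 5552 of all genes. Deviations of same-numbered libraries correlated at 0.07, -0.07 and -0.01 across genes, so the numbers were not taken to pair the samples. With 2 libraries a group, small differences are not detectable, and total counts describe counting error only.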
